A study of Drosophila melanogaster with 34 samples.

Results

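The regions bound by Caudal were compared between whole Drosophila melanogaster embryos of 4 to 8 h and of 0 to 4 h. Both lists come from chromatin immunoprecipitation followed by sequencing, in which DNA fixed to a protein is recovered with an antibody and read. Members were all listed regions of the long arms (2L, 2R, 3L, 3R, X) and of the small arm 4, chosen by list and arm and by no measured value. That gave 5587 peaks at 4 to 8 h and 2159 peaks at 0 to 4 h, together 7746 of the 48081 regions on these arms in the 18 lists of the series. The series held 34 samples, 16 of them inputs, and its other 16 lists map histone deacetylases, CTCF, the ecdysone receptor EcR and Caudal at later stages.

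The embryos of 4–8 h came from flies labelled y w, VK33, with Caudal carrying a GFP tag (cad-GFP), and the immunoprecipitation used goat anti GFP. The input DNA at that stage came from flies labelled y; bw cn sp. The embryos of 0–4 h and their inputs were of the y; bw cn sp flies, and the antibody was against Caudal itself. The list of 4–8 h rests on 1 library with 1 input, and that of 0–4 h on 2 libraries with 2 inputs, pooled by the authors before deposit. Every sample was fixed in 1.8% formaldehyde and labelled as untreated. The sources used here do not give the promoter of the tagged gene, its copy number or whether untagged Caudal was present. Stage, antibody, tag, strain and number of libraries all change together between the lists, so their parts in any difference cannot be told apart. With 1 list per stage there is no replicate spread, and no difference below was tested for significance. The intervals given are 95% intervals (Wilson for shares, exact binomial for medians) that treat peaks as independent and cover counting error only. The files give positions and no height or read count, so the depth behind each peak is unknown.

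Caudal is a homeodomain transcription factor and a member of the Cdx family. Maternal caudal mRNA fills the egg, and Bicoid represses its translation anteriorly, which leaves a gradient of Caudal protein that is highest at the posterior pole. In the early embryo it activates segmentation genes of the posterior trunk. Later, in embryos past gastrulation, it is made in the most posterior tissue and the developing hindgut. The earlier collection runs from the cleavage divisions into gastrulation, and the later one covers the extension of the germ band. Whole embryos were used, so a region bound in few cells and one bound weakly in many cannot be told apart.

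The list of 4–8 h held 2.59 times as many peaks as that of 0–4 h, and its peaks were narrower. Gaps of up to 5 kb exceeded an even placement less in the later list, though this ratio has a lower ceiling in a longer list. The peaks of the lists lay in largely different places. Only 5.64% of peaks at 4–8 h overlapped a peak of 0–4 h, and 13.8% of peaks at 0–4 h overlapped one of 4–8 h. Over all arms both shares were lower than the length of the arms alone would give, whereas pairs whose midpoints nearly coincided were more frequent than it gives. Neither held beyond the counting interval on every long arm. Peaks at 4–8 h overlapped HDAC3 regions more often than peaks at 0–4 h did, and overlapped HDAC1 regions and adult Caudal peaks less often.

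Widths were compared first. The median peak measured 1639 bp at 4–8 h (1615 to 1670) and 1864 bp at 0–4 h (1816 to 1923). The middle 50% of peaks spanned 1184 to 2382 bp at 4–8 h and 1312 to 2841 bp at 0–4 h, so the distributions overlapped over most of their range. The lists differed more at the wide end than in the middle. The ratio of widths, 4–8 h over 0–4 h, was 0.903 at the 25th percentile, 0.879 at the 50th, 0.839 at the 75th and 0.760 at the 99th. Peaks under 1 kb made up 12.0% of the list at 4–8 h (11.1% to 12.9%) and 3.84% of that at 0–4 h (3.11% to 4.74%). Peaks of 5 kb or more made up 2.86% at 4–8 h (2.46% to 3.33%) and 6.58% at 0–4 h (5.61% to 7.70%). Those wide peaks held 9.04% of the covered bases at 4–8 h and 19.3% at 0–4 h. In all, peaks covered 9.18% of the arms at 4–8 h and 4.29% at 0–4 h. The 2159 widest peaks of 4–8 h, as many as the list of 0–4 h holds, had a median of 2636 bp. Since they were picked by width, that value does not show whether the difference depends on the length of the lists, which was not tested.

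**Figure D1:**
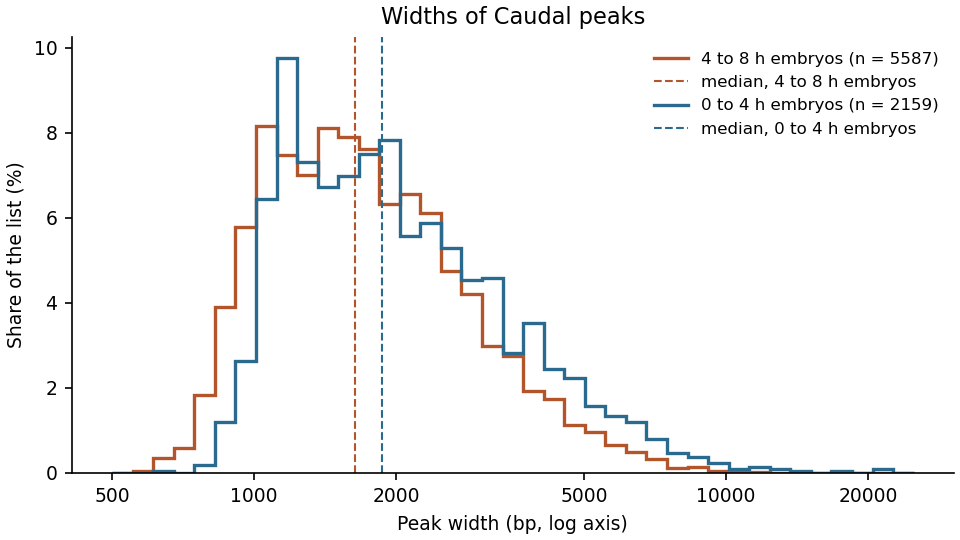
Share of each list (vertical axis, percent) by peak width (horizontal axis, bp, log scale) for the 5587 peaks of 4–8 h embryos and the 2159 peaks of 0–4 h embryos; dashed lines are the medians, 1639 bp and 1864 bp. The list of 4–8 h reaches further below 1000 bp and has a smaller share of its peaks beyond 5000 bp.

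Median widths were lower at 4–8 h on every arm. They were 1748 bp at 4–8 h and 1997 bp at 0–4 h on 2R, and 1668 bp at 4–8 h and 2087 bp at 0–4 h on 3R. The smallest difference was on X, with 1532 bp at 4–8 h (1456 to 1597) and 1616 bp at 0–4 h (1481 to 1728), where the intervals overlap. Arm 4 had only 6 peaks at 4–8 h and 13 at 0–4 h, and its intervals also overlap.

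Positions are on release 5 of the genome and printed as 1-based: deposited starts were read as 0-based and raised by 1, and ends are as deposited. The widest peak at 4–8 h was chr3L:1759053-1771284, of 12232 bp, which overlapped both HDAC3 lists and no other list; the nearest peak of 0–4 h lay 10961 bp away. The next was chr2L:5316724-5326878, of 10155 bp, which overlapped 1 peak of 0–4 h and 8 of the 16 other lists. It was followed by chr2L:6975367-6985453, chr3R:24923252-24932615 and chr3R:25627546-25636763, none of which overlapped a peak of 0–4 h. The last of these lay 675 bp from one. All 5 overlapped both HDAC3 lists.

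The widest peaks at 0–4 h were longer. The first was chr2R:5856322-5877366, of 21045 bp, which overlapped 3 separate peaks of 4–8 h and 10 other lists. The second was chr2L:20767077-20788098, of 21022 bp, which overlapped 2 peaks of 4–8 h and also 10 other lists, that of adult Caudal among them. The other 3 were chr3R:6415372-6432500 (17129 bp), chr2R:19521300-19535226 (13927 bp) and chr2R:9446521-9459756 (13236 bp). Of these 3 only that of 13927 bp overlapped a peak of 4–8 h. All 5 overlapped both HDAC1 lists, and also list 2 of HDAC6. Such overlap was common, since HDAC1 list 2 overlapped 49.7% of all peaks at 0–4 h and 64.6% of the widest 25%. HDAC6 list 2 overlapped 33.8% of all peaks at 0–4 h.

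Peaks of both lists were crowded. The gap to the next peak of the same list on the arm was 5 kb or less in 39.2% of cases at 4–8 h (38.0% to 40.5%) and in 29.6% at 0–4 h (27.7% to 31.5%). A longer list has shorter gaps in any case, so the shares were set beside those for the same number of points per arm at constant density, 23.5% at 4–8 h and 9.37% at 0–4 h. The excess was 1.67-fold at 4–8 h and 3.16-fold at 0–4 h. A share cannot exceed the whole list, so this ratio has a lower ceiling at 4–8 h, where the share at constant density is higher. At gaps up to 200 bp the ratio was 5.62-fold at 4–8 h and 12.0-fold at 0–4 h, and at gaps up to 50 kb it was 0.986-fold at 4–8 h and 1.15-fold at 0–4 h. The 2159 widest peaks of 4–8 h gave 2.67-fold at 5 kb, still below the 3.16-fold of 0–4 h. They were picked by width, so this value does not show what an equal number alone would give.

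Peaks joined by gaps of up to 5 kb were taken as clusters. At 4–8 h, 60.9% of peaks (59.7% to 62.2%) lay in a cluster of 2 or more, against 46.2% (44.1% to 48.3%) at 0–4 h. The order turned when only the 2159 widest peaks of 4–8 h were kept: 43.2% of them lay in a cluster, below the share of 0–4 h. These peaks were picked by width, and clustered peaks were the wider ones, so the effect of number alone was not tested. Clusters of 5 or more numbered 118 at 4–8 h and 32 at 0–4 h, and they held 12.9% of peaks at 4–8 h and 10.5% at 0–4 h. In both lists clustered peaks were wider than single ones. At 4–8 h the medians were 1740 bp in clusters and 1496 bp for single peaks, and at 0–4 h they were 1942 bp in clusters and 1772 bp for single peaks.

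The richest clusters of each stage were set beside the other list. The largest at 4–8 h was chr2L:4442341-4530649, where 17 peaks covered 72.1% of 88309 bp and no peak of 0–4 h lay inside, where length alone would give 1.75. It was followed by chr2R:4460843-4519357 with 15 peaks, chr2R:19552602-19597599 with 12, and chr2R:9758897-9796069 and chr3L:2245418-2273011 with 10 each. Of these 5 clusters only the second held a peak of 0–4 h, and its 1 peak was about what length alone gives (0.906). In the other 3 length alone would give 0.575 to 0.696, so a count of 0 there says little. The largest at 0–4 h was chr3R:12615666-12706064, where 20 peaks covered 67.2% of 90399 bp and 3 peaks of 4–8 h lay inside, where length alone would give 4.67. To its right lay chr3R:12758268-12796746 with 11 peaks, and to its left chr3R:12542878-12582269 with 10. The others were chr2L:14420837-14465477 and chr3R:2568953-2602236, with 9 each. The cluster with 11 peaks held 2 peaks of 4–8 h (1.99 by length), that with 10 held 0 (2.03 by length), and those with 9 held 1 on 2L (1.99 by length) and 3 on 3R (1.72 by length). Only in some of the clusters, then, was the other list below its number by length.

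The arms carried unequal shares. Density over all arms was 46.5 peaks per Mb at 4–8 h and 18.0 at 0–4 h. Arm 2R, with 17.6% of the bases, held 21.7% of peaks at 4–8 h (20.6% to 22.8%) and 15.1% at 0–4 h (13.7% to 16.7%), so it was above its share of bases at the later stage and below it at the earlier one. The ratio of peak numbers, 4–8 h over 0–4 h, was 3.71 on 2R, against 2.24 on 2L, 2.29 on 3L, 2.46 on 3R and 2.77 on X. X was poor in peaks in both lists, with 12.7% at 4–8 h and 11.9% at 0–4 h on 18.7% of the bases. The small arm 4, much of which is packed as heterochromatin, was the one arm with fewer peaks at 4–8 h than at 0–4 h, with 4.98 peaks per Mb at 4–8 h and 10.8 at 0–4 h.

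Along the 5 long arms the lists also had different profiles. The 33.3% of an arm nearest the tip held 35.2% of peaks at 4–8 h (33.9% to 36.5%) and 30.9% at 0–4 h (29.0% to 32.9%). The middle 33.3% held 33.2% at 4–8 h (32.0% to 34.4%) and 38.9% at 0–4 h (36.8% to 40.9%). The last 10.0% before the centromere was poor in peaks in both lists, with 7.10% at 4–8 h and 7.46% at 0–4 h.

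**Figure D2:**
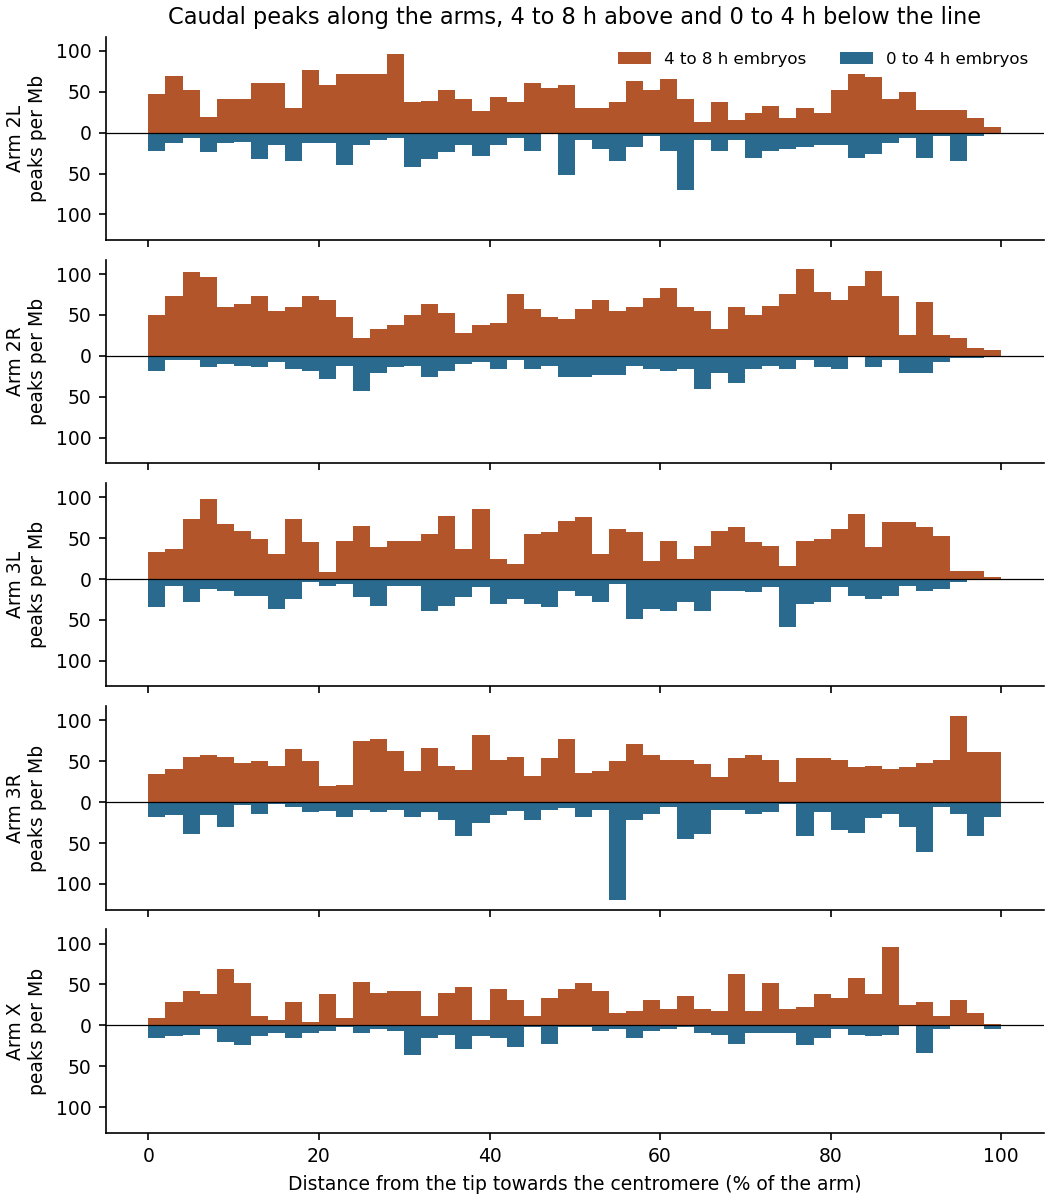
Peaks per Mb (vertical axis) in steps of 2% of the length of each long arm (horizontal axis, tip at left and centromere at right), with 4–8 h embryos above the line and 0–4 h embryos below it. Arm 3R has one tall column at 0–4 h with no matching column at 4–8 h, and X is low in both lists.

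In bins of 100 kb the variance of peak number was 2.53 times the mean at 4–8 h and 2.98 times the mean at 0–4 h. Bins with 0 peaks made up 10.5% of the 1205 bins at 4–8 h and 34.3% at 0–4 h, against 0.969% at 4–8 h and 16.7% at 0–4 h for an even spread. The densest 24.7% of bins held 50% of the peaks at 4–8 h, and the densest 14.6% did so at 0–4 h. These shares also depend on the mean per bin (4.64 at 4–8 h and 1.79 at 0–4 h), and no value for an even spread was computed. The counts of the lists were nearly unrelated over bins (Pearson r = 0.0369, Spearman rho = 0.141, across 1205 neighbouring bins that are not independent). The r was 0.138 on X and lay between -0.0373 and 0.0126 on 2L, 2R, 3L and 3R. Of the 100 densest bins of each list 8 were the same, where equal numbers of bins picked without regard to the other list would give 8.30.

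The 5 densest bins at 4–8 h were chr3L:13400001-13500000 with 19 peaks, chr2R:4700001-4800000 with 17, chr3L:9600001-9700000 with 16, and chr2R:3300001-3400000 and chr2R:9700001-9800000 with 15 each. At 0–4 h these bins held 0 or 1 peak, against a mean of 1.79 and a median of 1.00 per bin. Such counts are common at 0–4 h, where 34.3% of bins held 0 peaks. The 3 densest bins at 0–4 h were neighbours, together chr3R:12500001-12800000. That segment held 14 peaks at 4–8 h, as many as its length gives (14.0), and 58 peaks at 0–4 h, where its length gives 5.39. The next were chr3L:14100001-14200000 with 15 peaks and chr2L:11400001-11500000 with 14. With that segment the variance-to-mean ratio of 0–4 h, 2.98, was the highest of the 18 lists. Without it the ratio was 2.61, below the values of both EcR lists with all bins (2.90 and 2.63). Against those values the first place rests on these 3 bins, but the EcR lists were not recomputed without the segment. The ratio also depends on the mean number per bin. The lists held from 478 to 5587 peaks, so this rank is not like for like.

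The distance to the other list was measured between midpoints. A peak of 4–8 h lay a median of 26111 bp (25064 to 27197) from the nearest peak of 0–4 h, and a peak of 0–4 h lay 8714 bp (8292 to 9550) from the nearest of 4–8 h. The difference between these values follows from the number of peaks to be met. Each was therefore set beside points every 100 bp along the arms, whose medians were 29273 bp to the list of 0–4 h and 9164 bp to the list of 4–8 h. Over all arms, peaks of 4–8 h were slightly nearer than points, at 0.892 of the distance. By arm this held only on X (0.665), since on every other arm the interval of the median holds the value of points. In these values and the shares below, points follow arm length, and X has 18.7% of the bases but 12.7% of peaks at 4–8 h. For 0–4 h the ratio over all arms was 0.951, but the interval of the median holds the value of points. Without arm 4 and 1 Mb at each arm end the ratio of 0–4 h was 0.995. The differences from points changed with distance. Peaks more than 50 kb from the other list made up 28.8% of 4–8 h (27.7% to 30.0%), against 33.8% of points, and 4.82% of 0–4 h (3.99% to 5.80%), against 10.2% of points. At 2 kb the order was turned round: 5.53% of peaks at 4–8 h (309 of 5587) had a peak of 0–4 h that close, against 6.86% of points, and 14.2% of peaks at 0–4 h (306 of 2159) had one of 4–8 h, against 17.2% of points.

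**Figure D3:**
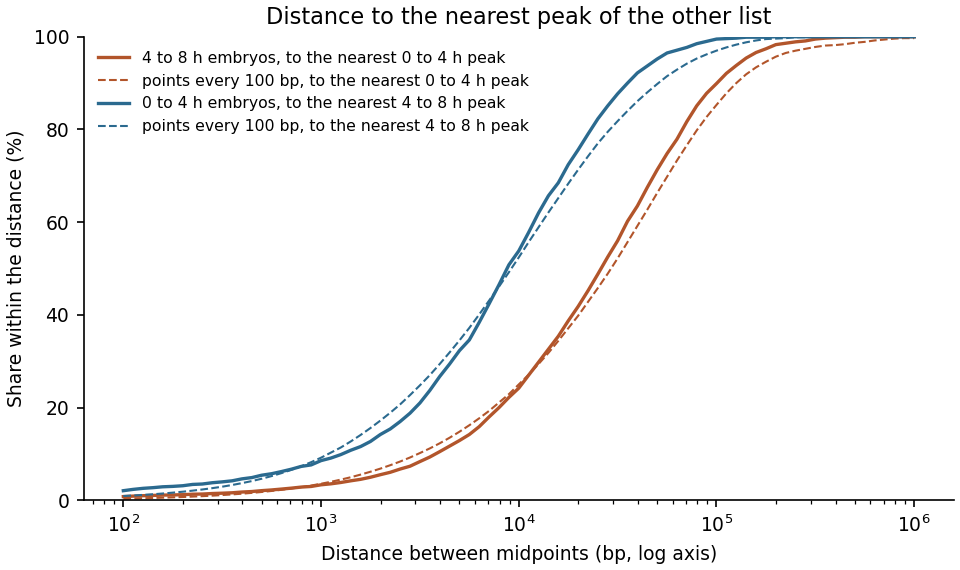
Share of peaks (solid) and of points every 100 bp along the arms (dashed) that have a peak of the other list within a given distance between midpoints (horizontal axis, bp, log scale). Solid curves start above the dashed ones under 500 bp, run below them at 2000 bp and above them beyond 50000 bp, in both directions.

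The arms differed in this measure. On X the median was 0.665 of that of points at 4–8 h and 0.587 at 0–4 h. On 2R the ratio was 0.981 at 4–8 h and 1.25 at 0–4 h, on 3L it was 0.911 at 4–8 h and 1.22 at 0–4 h, and on 2L it was 0.987 at 4–8 h and 1.06 at 0–4 h. On 2R and 3L peaks of 0–4 h lay farther from the later list than points did, and on 2L the interval of their median holds the value of points. The peak of 4–8 h farthest from the other list was chr3L:24360274-24361707, 1137 kb from the nearest peak of 0–4 h, and the next were chr2L:22962587-22963663 at 811 kb and chrX:21471684-21473466 at 547 kb. All 3 lay close to the centromeric end of the arm. The peaks of 0–4 h farthest from the other list were chr4:383100-383911 at 241 kb, chr4:426581-427899 at 197 kb and chrX:4218699-4219851 at 147 kb.

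Pairs of midpoints, 1 from each list, were then counted by distance. Within 250 bp there were 76 pairs, against 51.4 for the lengths of the arms, a 1.48-fold excess. From 250 to 500 bp the ratio was 0.797, from 500 bp to 1 kb it was 0.680, from 1 to 2 kb it was 0.656, and from 2 to 3 kb it was 0.734. It returned to 0.914 at 3 to 5 kb and to 1.00 at 10 to 50 kb. Over all arms the lists therefore had an excess of near-coincident midpoints and a deficit out to 3 kb. By arm the excess within 250 bp was clear only on 3R, as given further on. Within each list the pattern was another one. No pair of midpoints lay closer than 868 bp at 4–8 h or 1192 bp at 0–4 h, since peaks of a list do not overlap, and from 2 to 3 kb pairs were in excess 1.81-fold at 4–8 h and 2.89-fold at 0–4 h.

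**Figure D4:**
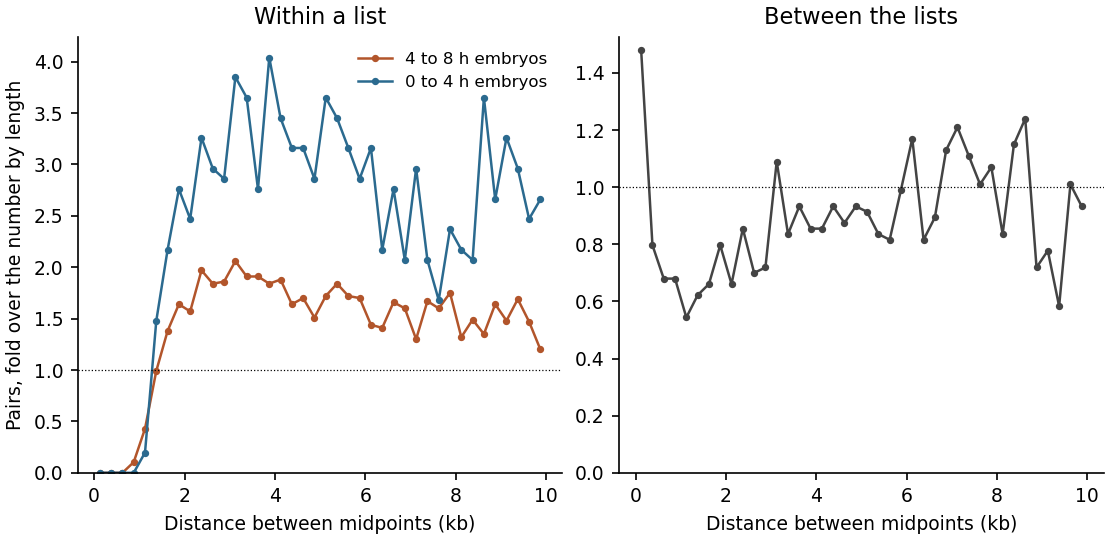
Pairs of midpoints per 250 bp of distance (horizontal axis, kb), as a fold over the number that the lengths of the arms give (vertical axis; dotted line at 1), within each list at left and between the lists at right. Pairs within a list are in excess beyond 2 kb, more so at 0–4 h, whereas pairs between the lists are in excess under 250 bp (1.48-fold) and below the line up to 3 kb.

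By overlap of at least 1 bp, 315 peaks of 4–8 h met 297 peaks of 0–4 h. The shares were 5.64% of 4–8 h (5.06% to 6.27%) and 13.8% of 0–4 h (12.4% to 15.3%). The widths and numbers of peaks on each arm, with position ignored, would give 7.61% of 4–8 h and 18.7% of 0–4 h, so the observed share was 0.741 of that value for 4–8 h and 0.736 for 0–4 h. In bases the lists had 425574 bp in common, 3.86% of the bases of 4–8 h and 8.27% of those of 0–4 h. The ratio depended on the width given to a peak: it was 0.914 for 4–8 h and 0.910 for 0–4 h when every peak was set to 1 kb around its midpoint, and 1.48 for both when only midpoints within 250 bp counted. It was lowest on 2R, with 0.559 for 4–8 h and 0.586 for 0–4 h. The other long arms lay between 0.688 and 0.844 for 4–8 h and between 0.665 and 0.879 for 0–4 h. On X the interval of the share holds the geometry at 4–8 h (2.28% to 4.97%, against 4.00%) and at 0–4 h (6.36% to 13.5%, against 10.6%). On 2L it does so at 4–8 h (5.36% to 8.45%, against 8.35%). On arm 4 no peak overlapped, with 0 of 6 at 4–8 h and 0 of 13 at 0–4 h, which allows shares of up to 39.0% at 4–8 h and 22.8% at 0–4 h.

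Shared peaks of 4–8 h had a median width of 1622 bp (1500 to 1785) and the unshared ones 1640.5 bp (1615 to 1671), with intervals that overlap. Shared peaks of 0–4 h were the wider ones, with a median of 2478 bp (2240 to 2668), against 1816 bp (1757 to 1864) for unshared ones. Set beside the geometry of their own widths, the narrowest 25% of peaks at 4–8 h overlapped 1.11 times as often and the widest 25% 0.564 times as often. At 0–4 h the same ratio was 0.614 in the narrowest and 0.810 in the widest 25%. By crowding, 4.70% of clustered peaks at 4–8 h (4.04% to 5.46%) and 7.10% of single peaks (6.10% to 8.26%) overlapped a peak of 0–4 h. At 0–4 h 12.2% of clustered (10.3% to 14.4%) and 15.1% of single peaks (13.1% to 17.2%) overlapped one of 4–8 h, with intervals that overlap. Relative to the geometry of their own widths, clustered peaks stood at 0.605 at 4–8 h and 0.634 at 0–4 h. Single peaks stood at 0.829 at 0–4 h and at 0.964 at 4–8 h, where the interval holds the geometry (7.37%).

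The 315 overlapping pairs had a median of 1107 bp in common and a median offset of 768 bp between midpoints. In 143 pairs the peak of 4–8 h lay wholly inside that of 0–4 h, and in 6 pairs the reverse held. The pair with the longest overlap was chr2L:20769845-20776211 at 4–8 h, all 6367 bp of it inside the wide peak chr2L:20767077-20788098 at 0–4 h. In the pair ranked 2, chr2L:12082259-12086425 at 4–8 h lay inside chr2L:12079456-12090725 at 0–4 h. The others were chr3R:11793883-11800840 at 4–8 h with chr3R:11796799-11800965 at 0–4 h, chr2R:16882215-16886204 at 4–8 h with chr2R:16882186-16886325 at 0–4 h, and chr3R:16118489-16122401 at 4–8 h with chr3R:16115347-16122471 at 0–4 h. The pair on 2R matched almost end to end, with midpoints 46.0 bp apart.

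The 76 pairs with midpoints within 250 bp were described after their excess had been seen. They were the narrower ones, with median widths of 1188 bp at 4–8 h and 1533 bp at 0–4 h, against 1796 bp at 4–8 h and 2877 bp at 0–4 h in the other 239 pairs. Overlapping peaks can have midpoints farther apart the wider they are, so the split by offset itself puts narrow pairs among the 76. How much of the difference in width that makes was not tested. Of the 76 pairs, 31 lay on 3R, 15 on 2L, 15 on 3L, 8 on X and 7 on 2R. On 3R 2.15% of peaks at 4–8 h (1.52% to 3.04%) had a midpoint of 0–4 h within 250 bp, against 1.05% of points. On 2R the share was 0.578% (0.280% to 1.19%), against 0.775% of points. On every arm but 3R the interval at 4–8 h holds the value of points, though only just on X (0.570% to 2.20%, against 0.574%). HDAC3 overlapped the common bases of 6.58% of the 76 pairs and 31.8% of the 239, HDAC1 36.8% and 44.8%, and CTCF 25.0% and 34.7%. HDAC11 overlapped 18.4% of the 76 and 18.8% of the 239, and adult Caudal 28.9% and 25.5%. Overlap with HDAC3 also rises with peak width, as given further on for each list, and its part in these shares was not tested. The closest pairs, with midpoints 2.00 bp apart, were chr3R:18023102-18024208 at 4–8 h with chr3R:18023050-18024264 at 0–4 h, and chrX:7870949-7871958 at 4–8 h with chrX:7870842-7872069 at 0–4 h.

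The peaks were last set beside the other lists. Histone deacetylases take acetyl groups off histones. Lists of HDAC1, HDAC3, HDAC4a, HDAC6 and HDAC11 come from y; bw cn sp embryos of 0 to 12 h, 2 per protein, with 1 input in common. CTCF, which binds insulators, was mapped in S2 cells, a line derived from embryos. HDAC3 overlapped 39.9% of peaks at 4–8 h (38.7% to 41.2%) and 16.5% at 0–4 h (15.0% to 18.1%). HDAC1 had the opposite order, with 22.0% at 4–8 h (21.0% to 23.1%) and 53.1% at 0–4 h (51.0% to 55.2%). The order was the same for CTCF, with 16.5% at 4–8 h (15.5% to 17.5%) and 33.4% at 0–4 h (31.4% to 35.4%), and for Caudal of adult females, with 6.87% at 4–8 h (6.24% to 7.57%) and 28.2% at 0–4 h (26.3% to 30.1%). The adult list shares the y w, VK33 flies, the cad-GFP tag and the goat anti GFP antibody with the list of 4–8 h, and it came from 1 library of females of 21 days.

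Relative to the geometry of the arms, both HDAC3 lists were in excess at 4–8 h (2.05-fold and 2.00-fold) and in deficit at 0–4 h (0.756-fold and 0.768-fold). Both HDAC1 lists were near the geometry at 4–8 h (1.13-fold and 1.09-fold) and in excess at 0–4 h (2.34-fold and 2.62-fold). Adult Caudal stood at 0.846-fold at 4–8 h and 3.17-fold at 0–4 h. The 2 lists of HDAC11 went different ways: list 1 stood at 1.19-fold at 4–8 h and 1.97-fold at 0–4 h, and list 2 at 2.47-fold at 4–8 h and 0.624-fold at 0–4 h. HDAC4a likewise had 1.03-fold at 4–8 h and 2.30-fold at 0–4 h in list 1, and 2.16-fold at 4–8 h and 1.46-fold at 0–4 h in list 2. HDAC6 had 1.95-fold at 4–8 h and 1.63-fold at 0–4 h in list 1, and 1.36-fold at 4–8 h and 2.05-fold at 0–4 h in list 2. For HDAC11, HDAC4a and HDAC6 the order of the stages therefore depends on which of the lists is used.

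**Figure D5:**
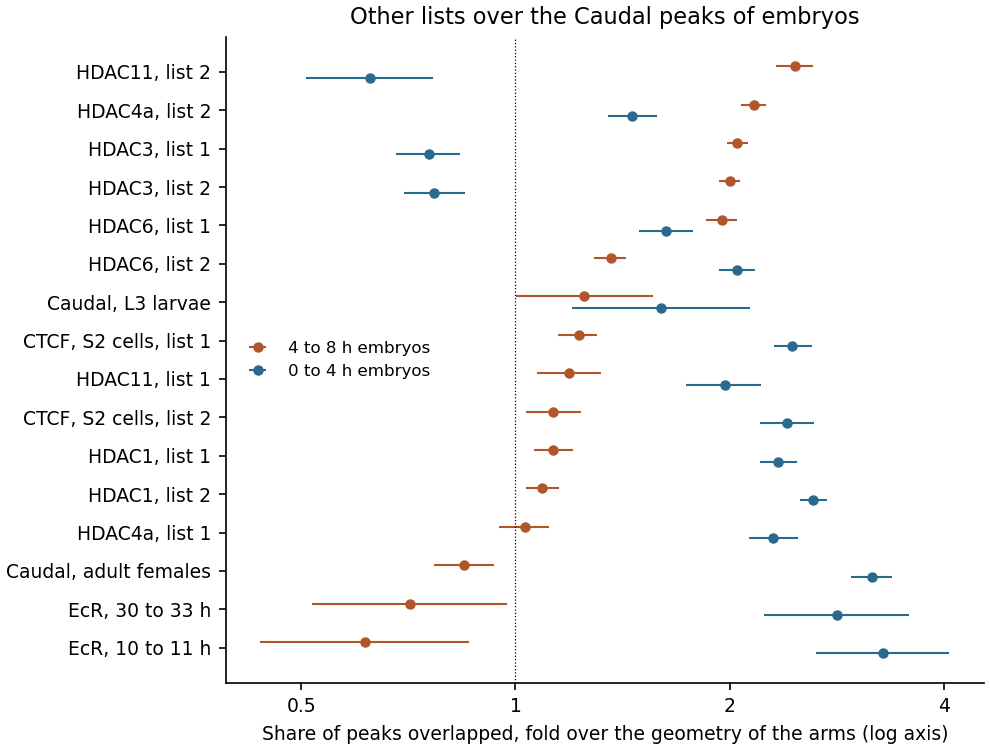
Share of Caudal peaks overlapped by each of the 16 other lists, as a fold over the share given by the geometry of the arms (horizontal axis, log scale; dotted line at 1), for 4–8 h embryos and 0–4 h embryos; bars are the 95% Wilson intervals of the shares, scaled in the same way. Both HDAC3 lists and HDAC11 list 2 lie right of the line at 4–8 h and left of it at 0–4 h, while adult Caudal and both EcR lists do the reverse.

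At 4–8 h the ratio to the geometry grew with peak width for HDAC3, and likewise for HDAC1 and CTCF. HDAC3 list 2 overlapped 12.4% of the narrowest 25% of peaks at 4–8 h and 69.3% of the widest, 0.703 and 3.17 times the geometry for those widths. At 0–4 h it overlapped 5.74% of the narrowest 25% and 26.3% of the widest, 0.327 and 1.14 times the geometry. For HDAC1 list 2 the ratio at 4–8 h was 0.607 in the narrowest and 1.58 in the widest 25%, and at 0–4 h it was 2.21 and 2.63. For CTCF list 1 it was 0.822 and 1.5 at 4–8 h, and 2.37 and 2.25 at 0–4 h. In clusters HDAC3 list 2 overlapped 45.0% of peaks at 4–8 h (2.30-fold) and 9.12% at 0–4 h (0.461-fold), and among single peaks 29.1% at 4–8 h (1.53-fold) and 20.3% at 0–4 h (1.03-fold).

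Densities over 100 kb bins were set beside the same lists. The bin counts of 4–8 h had r = 0.456 with HDAC3 list 1 and 0.454 with list 2, and those of 0–4 h had r = -0.0257 and -0.0373 with the same lists. With HDAC1 list 2 the r was 0.254 at 4–8 h and 0.395 at 0–4 h, but with HDAC1 list 1 it was 0.376 at 4–8 h and 0.238 at 0–4 h. For HDAC1 the order of the stages in bin counts therefore depends on which list is used. These values are across 1205 bins of a genome that all lists share.

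Peaks shared by the stages met more of the other lists than unshared ones did. Any HDAC list overlapped 80.6% of shared and 65.6% of unshared peaks at 4–8 h, and 81.5% of shared and 71.3% of unshared peaks at 0–4 h. Shared peaks lie where the peaks of the other stage lie, so their shares are not independent of those of the other list. At 0–4 h shared peaks were also wider than unshared ones (medians of 2478 bp and 1816 bp), and overlap rose with width. From the narrowest to the widest 25% of peaks at 0–4 h, overlap went from 21.9% to 45.4% for CTCF list 1. For adult Caudal it went from 21.1% to 36.1%. The shares of shared and unshared peaks were not set beside a geometry, so the part of width was not tested. HDAC1 overlapped 43.2% of the shared peaks of 4–8 h (37.8% to 48.7%) and 20.8% of the others (19.7% to 21.9%). HDAC3 overlapped 26.3% of the shared (21.8% to 31.5%) and 40.8% of the others (39.4% to 42.1%), and adult Caudal 27.0% of the shared (22.4% to 32.1%) and 5.67% of the others (5.08% to 6.33%). At 0–4 h HDAC1 overlapped 49.2% of the shared peaks (43.5% to 54.8%) and 53.7% of the others (51.4% to 56.0%), with intervals that overlap, while HDAC3 overlapped 27.9% of the shared (23.1% to 33.3%) and 14.7% of the others (13.1% to 16.3%). Adult Caudal overlapped 35.4% of the shared peaks of 0–4 h (30.1% to 40.9%) and 27.1% of the others (25.1% to 29.1%). CTCF overlapped 34.6% of shared and 15.4% of unshared peaks at 4–8 h, and 42.4% of shared and 32.0% of unshared peaks at 0–4 h. Peaks that met none of the 16 other lists made up 29.9% at 4–8 h (28.7% to 31.1%) and 20.5% at 0–4 h (18.9% to 22.3%). Peaks that met 8 or more made up 4.80% at 4–8 h (4.27% to 5.39%) and 8.11% at 0–4 h (7.03% to 9.33%). Whether HDAC regions move with stage was not tested, since each of those lists pools 0 to 12 h.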

How the data were processed

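Chromatin was fixed, sonicated and immunoprecipitated per the labels' protocols, and ChIP and input DNA was read at 36 bp per the series record. The authors deposited, for each list, the chromosome, start and end of every region on release 5 of the BDGP genome, per the submitters' processing notes. The sources used here do not name the aligner or the peak caller. One start at 4–8 h lay below 0 and was used as given. An arm was taken to run from the first to the last base listed on it in any of the 18 lists (120102709 bp in all).

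Medians, gaps, bins, overlaps and distances were computed with Python 3.11.15 and numpy 2.4.6 and intervals with scipy 1.17.1. The overlap, gap and distance measures were tested on simulated lists. The share expected by geometry is the part of an arm in which a peak of the same width would meet the other list. It ignores clusters and regions where reads cannot be placed. Named regions are the 5 widest peaks, 5 largest clusters and 5 densest bins per list, the 5 longest overlaps and the 3 farthest peaks per list; the closest pairs were added after their values were seen. Groups, measures and named regions were chosen with earlier results of these data known. The gene table at hand is of release 6, so genes, motifs and sequences were not analysed here. Alternatives are given with the closing observations.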

Additional observations from a re-analysis of the deposited data

Results flagged for a closer look

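Both lists held regions outside the arms, which entered no comparison of the report. There were 40 at 4–8 h and 48 at 0–4 h. At 4–8 h 24 of them lay on heterochromatic sequences and 16 on the unplaced sequences U and Uextra, and at 0–4 h these numbers were 7 and 30. The list of 0–4 h also had 11 regions on the mitochondrial genome, and the list of 4–8 h had none there. No list from input DNA was analysed here, and the files do not give the signal behind the regions.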

How the results depend on the processing

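Of 67 alternative values, 19 stayed within the counting interval or, for variance-to-mean ratios and r, within 1.5 times, 46 moved and 2 crossed from below to above the geometry. Those 2 are the overlap with midpoints within 250 bp, 1.48 times the geometry for either list (shares 1.36% at 4–8 h and 3.52% at 0–4 h). With 50% of the smaller peak the share was 4.40% at 4–8 h (0.843-fold) and 10.8% at 0–4 h (0.834-fold), with the widest 50% of each list 4.62% (0.826-fold) and 11.5% (0.834-fold), and with peaks set to 1 kb 3.35% (0.914-fold) and 8.57% (0.910-fold).

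Keeping the 2159 widest peaks of 4–8 h is a choice by width as well as by number. It turned the order of the stages in median width (2636 bp, by construction, against 1864 bp at 0–4 h) and in the share in clusters (43.2%, against 46.2% at 0–4 h). It also gave a gap excess of 2.67-fold, a bin r of 0.0237, an overlap of 0.604-fold at 4–8 h and of 5.47% (0.571-fold) at 0–4 h, and nearest distances of 23902 bp (0.819 of points) at 4–8 h and 22397 bp (0.823) at 0–4 h. With all peaks of both lists kept, the nearest distances measured edge to edge were 24063 bp (0.856 of points) at 4–8 h and 6634 bp (0.804) at 0–4 h. Peaks have width and the points do not, so the edge ratio is lower by construction, to a degree not tested.

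The share in clusters was 39.9% at 4–8 h and 30.9% at 0–4 h with gaps of 2 kb, 77.3% and 58.8% with 10 kb, and 47.7% and 33.9% between midpoints. The gap excess was 2.31-fold at 4–8 h and 4.69-fold at 0–4 h with 2 kb, 1.34-fold and 2.22-fold with 10 kb, and 1.35-fold and 2.23-fold between midpoints. It was lower at 4–8 h than at 0–4 h under each. Bins of 500 kb gave variance-to-mean ratios of 5.08 at 4–8 h and 5.67 at 0–4 h. The r between the lists was 0.0101 with bins of 50 kb, 0.112 with 500 kb and 0.0119 without arm 4 and 1 Mb at each arm end. Apart from the choice of widest peaks and the definitions of gap, bin and overlap themselves, the cause of these shifts was not tested.

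No paired analysis was possible because each stage has 1 pooled list with no replicate numbers in common. Leaving out replicates was not done for the same reason. Genes and motifs were not run. The depth of the lists is unknown, which limits what a missing peak shows.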
